A study of Mus musculus with 8 samples.

Results

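The genes examined here encode the subunits of intraflagellar transport (IFT) trains and of the Bardet-Biedl syndrome (BBS) complexes. They were taken from the probe names on the array: a gene belonged if its name was Ift or Bbs followed by a digit, or was Ttc8, Ttc26, Ttc30a1, Ttc30b, Traf3ip1 or Cluap1, which are IFT or BBS subunits under other names. This gave 35 probes of 55681 non-control probes, for 27 genes of 26584 genes tested. The probe that stood for each of the 27 genes was well above background on all 8 arrays, so none was lost to the filter on dim probes and no value of these probes is a bound.

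The arrays measured whole testes of juvenile C57BL/6 mice with 2 intact copies of Ip6k1 (Ip6k1+/+, wild type) or with none (Ip6k1-/-, knockout), littermates from crosses of Ip6k1+/- parents. Ip6k1 encodes inositol hexakisphosphate kinase 1, an enzyme that makes inositol pyrophosphates. Mice were killed at 17 days postpartum (dpp), before weaning, or at 26 dpp, after weaning, which gave 4 groups of 2 arrays, each array hybridised with the RNA of 1 sample labelled as a biological replicate. The labels do not say whether a sample pooled several mice. The knockout has no cell-type restriction in the labels, and the part of Ip6k1 removed by the allele is not given in the sources used here.

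IFT trains carry building material along the microtubules of a growing cilium or sperm tail. The IFT-B complex, with a core and a peripheral part, moves outward with kinesin-2, and the IFT-A complex works with cytoplasmic dynein 2 on the return to the base. The BBSome is a coat-like adaptor that rides on IFT trains and moves membrane proteins through cilia, and the chaperonin-like proteins Bbs10 and Bbs12 assist its assembly. In the testis these proteins are known for the building of the sperm tail, which starts in round spermatids, the haploid cells that first appear between the younger and the older age studied here. Values below are log2 of the processed signal relative to the 75th percentile of the same array. Differences were tested with limma over all 8 arrays, with Benjamini-Hochberg adjustment over all 26584 genes, and a gene was called at an adjusted p under 0.05. With 2 arrays a group, these p-values measure only the spread between the samples at hand.

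One array stood apart from its group. Knockout replicate 2 of 26 dpp correlated at 0.917 to 0.948 with the 17 dpp arrays and at 0.838 to 0.873 with the other arrays of 26 dpp. On it the median of the 20 round spermatid markers was −3.82, against 3.96 to 4.67 on the other arrays of 26 dpp and −5.24 to −4.56 at 17 dpp, whereas the median of 15 pachytene spermatocyte markers was 3.38, against 3.82 to 3.94 and 0.92 to 1.35. Its Ip6k1 signal, 1.30, lay with the knockout. Mean Ip6k1 signal was 2.25 ± 0.08 (wild type) and 1.43 ± 0.09 (knockout) among the 17 dpp arrays, and 2.78 ± 0.02 and 1.35 ± 0.08 among those of 26 dpp (SD, n = 2 each). These differences of −0.82 and −1.43 had limma adjusted p of 1 and 0.527, and whether the probe lies outside the deleted part is not known. Epididymis markers were high on both wild type arrays of 17 dpp (medians −0.61 and 0.63) and low on the other 6 (−7.63 to −6.97). All arrays were on 1 slide, with the 17 dpp arrays in row 1 and the 26 dpp arrays in row 2, and wild type in columns 1 and 2, so neither age and row nor genotype and column can be told apart.

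Because many of these genes moved together between the ages, the letters at their starts are shown first. RFX transcription factors, known regulators of cilium genes, bind the X-box, in which an arm GTNNCC is followed, after a gap of 1 to 3 bases, by an arm GGNNAC. RefSeq promoter windows (GRCm38.p6, 300 bases, from 250 before to 50 after the start) were held for 23 of the 27 genes. A paired X-box, on either strand, stood in 5 of the 23, against 4% of 27025 genes with such a window. The 5 genes are shown with the paired X-box, and in Ift57 also a cAMP response element, in capitals and 8 flanking bases on either side.

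Bbs1, chr19:4906605-4906634, minus strand: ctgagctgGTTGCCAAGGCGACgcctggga
Bbs4, chr9:59353464-59353493, minus strand: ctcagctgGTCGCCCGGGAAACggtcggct
Bbs7, chr3:36613489-36613518, minus strand: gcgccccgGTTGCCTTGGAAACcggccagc
Ttc26, chr6:38381483-38381512, plus strand: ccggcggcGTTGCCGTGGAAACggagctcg
Ift57, chr16:49699124-49699254, plus strand: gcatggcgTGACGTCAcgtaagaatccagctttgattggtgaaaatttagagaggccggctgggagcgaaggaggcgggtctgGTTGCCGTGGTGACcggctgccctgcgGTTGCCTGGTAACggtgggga

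The paired X-box began at position −121 from the start in Bbs7, −33 in Ttc26, 2 in Bbs1 and 24 in Bbs4, and Ift57 held 2 of them, at −87 and −60. The Ift57 window alone also held a full cAMP response element (TGACGTCA, either strand), the site of CREB family factors. Of all genes with such a window, 2.03% held this element. The single arm GTTGCC lies inside all of the paired sites above other than that of Bbs4. It was found, on either strand, in 10 of the 23 genes, against 14.1% of all genes with such a window. Of the genes called higher at 26 dpp in wild type (below), 2 of the 11 with a window held a paired X-box and 6 held the single arm; of the others, 3 of 12 and 4 of 12 did. These are matches of letters, and binding was not measured.

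In wild type, 14 of the 27 genes were higher at 26 than at 17 dpp and 0 were lower. Over all genes tested 18.9% were called higher and 26.1% lower. The median difference of the 27 genes was 1.43 (range −0.39 to 3.32), against −0.46 for all genes. In testis RNA, a change in the share of cells of a type and a change in RNA per cell cannot be told apart, and the median of the 20 round spermatid markers was higher on both older wild type arrays (3.96 and 4.67, against −5.24 and −4.76). Of these markers, 8 were not well above background on either wild type array of 17 dpp, and 8 were so on all 8 arrays. Their part in the rise of the IFT and BBS genes was not tested. On single arrays, 21 of the 27 genes were higher on all 4 arrays of 26 dpp than on any array of 17 dpp, knockout replicate 2 included (19.4% of all genes were).

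**Figure D1:**
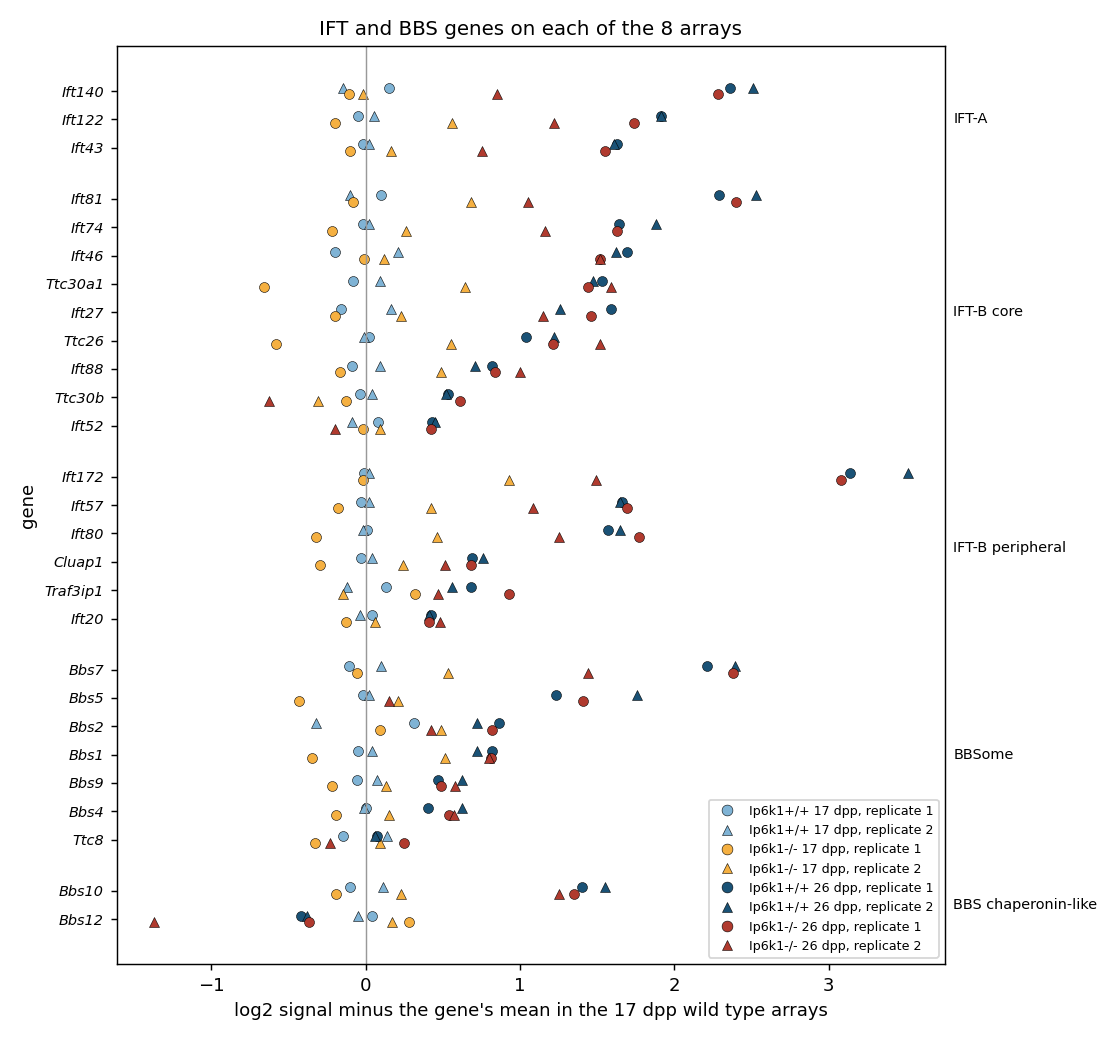
Log2 signal of the 27 genes on each of the 8 arrays (horizontal axis, after subtracting each gene's mean in the 17 dpp wild type arrays), 1 row per gene in the order of complexes; colour gives the group and shape the replicate. The 26 dpp arrays lie to the right of the 17 dpp arrays in 21 genes, Bbs12 lies the other way, and knockout replicate 2 of 26 dpp (dark red triangles) lies to the left of the other 26 dpp arrays in 19 genes.

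All 3 IFT-A genes that carry an Ift number rose in wild type. Ift140 encodes a core IFT-A subunit. It gave −4.11 and −4.41 (wild type) against −4.37 and −4.28 (knockout) at the younger age, and −1.90 and −1.75 (wild type) against −1.98 and −3.41 (knockout) at the older. The 26 dpp arrays were higher throughout, with knockout replicate 2 between the ages. The wild type difference was 2.44, or 5.41-fold (SE 0.471, limma adjusted p 0.0151). Ift122, another core IFT-A subunit, read 4.10 and 4.20 on the Ip6k1+/+ arrays of 17 dpp, 3.95 and 4.71 on the Ip6k1-/- arrays of that age, 6.06 and 6.06 on the older Ip6k1+/+ arrays, and 5.89 and 5.37 on the older Ip6k1-/- arrays. Its 2 wild type arrays of 26 dpp were the highest, and the difference was 1.91 (3.75-fold; limma adjusted p 0.0124). Ift43, a small IFT-A subunit, gave 3.41 and 3.45 (wild type) against 3.33 and 3.59 (knockout) at the younger age, and 5.06 and 5.04 (wild type) against 4.98 and 4.18 (knockout) at the older. The ages did not overlap, and the wild type difference was 1.62 (limma adjusted p 0.0156).

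Of the 9 IFT-B core genes, 5 rose in wild type, with a median difference of 1.43 over the 9. Ift81 and Ift74 encode partners that together hold tubulin as cargo. Ift81 read 0.58 and 0.38 on the Ip6k1+/+ arrays of 17 dpp, 0.40 and 1.16 on the Ip6k1-/- arrays of that age, 2.77 and 3.01 on the older Ip6k1+/+ arrays, and 2.88 and 1.53 on the older Ip6k1-/- arrays. Here too knockout replicate 2 was the lowest of the older arrays, though above all 4 younger ones, and the wild type difference was 2.41 (5.30-fold; limma adjusted p 0.0175). The brighter Ift74 probe gave 2.88 and 2.92 (wild type) against 2.68 and 3.16 (knockout) at the younger age, and 4.54 and 4.78 (wild type) against 4.53 and 4.06 (knockout) at the older. The ages did not overlap on that probe, and its wild type difference was 1.76 (3.39-fold; limma adjusted p 0.011).

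The brighter probe of Ift46, a core subunit known for carrying axonemal dynein in algae, read 3.50 and 3.91 on the Ip6k1+/+ arrays of 17 dpp, 3.69 and 3.82 on the Ip6k1-/- arrays of that age, 5.39 and 5.32 on the older Ip6k1+/+ arrays, and 5.22 and 5.22 on the older Ip6k1-/- arrays. The 4 older arrays were close to each other, knockout replicate 2 included. Its wild type difference of 1.65 (3.15-fold, SE 0.241) had the smallest adjusted p of the 27 genes, 0.00897 by limma. Ift27, a small GTPase of the core that links IFT to the BBSome, gave 3.39 and 3.71 (wild type) against 3.35 and 3.78 (knockout) at the younger age, and 5.14 and 4.81 (wild type) against 5.01 and 4.70 (knockout) at the older. The ages again did not overlap, and the difference was 1.43 (limma adjusted p 0.0166). Ttc30a1, which encodes an IFT70 copy, also rose, by 1.5 (limma adjusted p 0.0362). The other IFT-B core genes did not pass the test in wild type. Ttc26 (IFT56) differed by 1.12 (limma adjusted p 0.0605), Ift88, known to be needed for sperm tail formation, by 0.76 (0.073), Ttc30b by 0.53 and Ift52 by 0.44. Ttc30a1 and Ttc30b are close copies. No run of 20 bases was shared between any of the 35 probes and a probe of another gene, but cross-hybridisation to transcripts of close copies was not assessed.

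Of the 6 peripheral IFT-B genes, 3 rose in wild type. Ift172, whose large protein acts where trains turn around at the tip, changed by more than any other of the 27 genes. It read −0.02 and 0.01 on the Ip6k1+/+ arrays of 17 dpp, −0.03 and 0.92 on the Ip6k1-/- arrays of that age, 3.13 and 3.50 on the older Ip6k1+/+ arrays, and 3.07 and 1.48 on the older Ip6k1-/- arrays. In each knockout group replicate 2 was away from its partner, upward at 17 dpp and downward at 26 dpp. The wild type difference was 3.32 (SE 0.581, limma adjusted p 0.0122). Ift57, a peripheral subunit, gave 1.83 and 1.88 (wild type) against 1.68 and 2.28 (knockout) at the younger age, and 3.52 and 3.51 (wild type) against 3.55 and 2.94 (knockout) at the older. Ift80, mutated in a human skeletal ciliopathy, read 1.37 and 1.34 on the Ip6k1+/+ arrays of 17 dpp, 1.04 and 1.82 on the Ip6k1-/- arrays of that age, 2.93 and 3.01 on the older Ip6k1+/+ arrays, and 3.13 and 2.61 on the older Ip6k1-/- arrays. Both showed no overlap of the ages and the same order of the knockout replicates as Ift172. Ift57 rose by 1.65 (limma adjusted p 0.015) and Ift80 by 1.61 (0.0182) in wild type. Cluap1 (IFT38), Traf3ip1 (IFT54) and Ift20, a subunit also found at the Golgi, differed by 0.72, 0.62 and 0.41 and were not called, the smallest limma adjusted p of these being 0.0655.

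On the probes that stood for its genes, the BBSome moved less. Of its 7 genes 2 rose in wild type, and the median difference was 0.77; whether this differs from the IFT genes was not tested. Bbs7, one of the first subunits to assemble, gave 0.27 and 0.48 (wild type) against 0.32 and 0.91 (knockout) at the younger age, and 2.59 and 2.77 (wild type) against 2.76 and 1.82 (knockout) at the older. The wild type difference was 2.30 (4.93-fold; limma adjusted p 0.0114). Bbs5, a subunit that binds membrane lipids, read 1.28 and 1.32 on the Ip6k1+/+ arrays of 17 dpp, 0.87 and 1.51 on the Ip6k1-/- arrays of that age, 2.53 and 3.06 on the older Ip6k1+/+ arrays, and 2.71 and 1.45 on the older Ip6k1-/- arrays. For Bbs7 every older array was above every younger one, whereas knockout replicate 2 of Bbs5 fell among the 17 dpp values. Bbs5 rose by 1.5 in wild type (limma adjusted p 0.0477). Bbs2, another BBSome subunit, gave −0.67 and −1.30 (wild type) against −0.89 and −0.49 (knockout) at the younger age, and −0.12 and −0.26 (wild type) against −0.16 and −0.56 (knockout) at the older. Its ages overlapped through both knockout replicates 2, and its wild type difference was 0.79 without a call. Bbs1, Bbs9, Bbs4 and Ttc8 (BBS8) differed by 0.77, 0.54, 0.51 and 0.07, also without a call. The BBSome values depend on the probe read: the dimmer probes of Bbs1, Bbs5 and Bbs7 rose by 2.67, 2.77 and 2.61 in wild type. Of these, only the gap between the Bbs1 probes passed the test given below.

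The chaperonin-like pair went different ways. Bbs10 read −0.47 and −0.26 on the Ip6k1+/+ arrays of 17 dpp, −0.56 and −0.14 on the Ip6k1-/- arrays of that age, 1.03 and 1.18 on the older Ip6k1+/+ arrays, and 0.98 and 0.88 on the older Ip6k1-/- arrays. All 4 older arrays were close together and above the younger ones, and Bbs10 rose by 1.47 in wild type (limma adjusted p 0.0119). Bbs12 gave 0.27 and 0.18 (wild type) against 0.51 and 0.40 (knockout) at the younger age, and −0.19 and −0.15 (wild type) against −0.14 and −1.14 (knockout) at the older. It was the only one of the 27 genes lower on every older array than on every younger one (30.2% of all genes were). The wild type difference of −0.39 was not called (limma adjusted p 0.376).

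**Figure D2:**
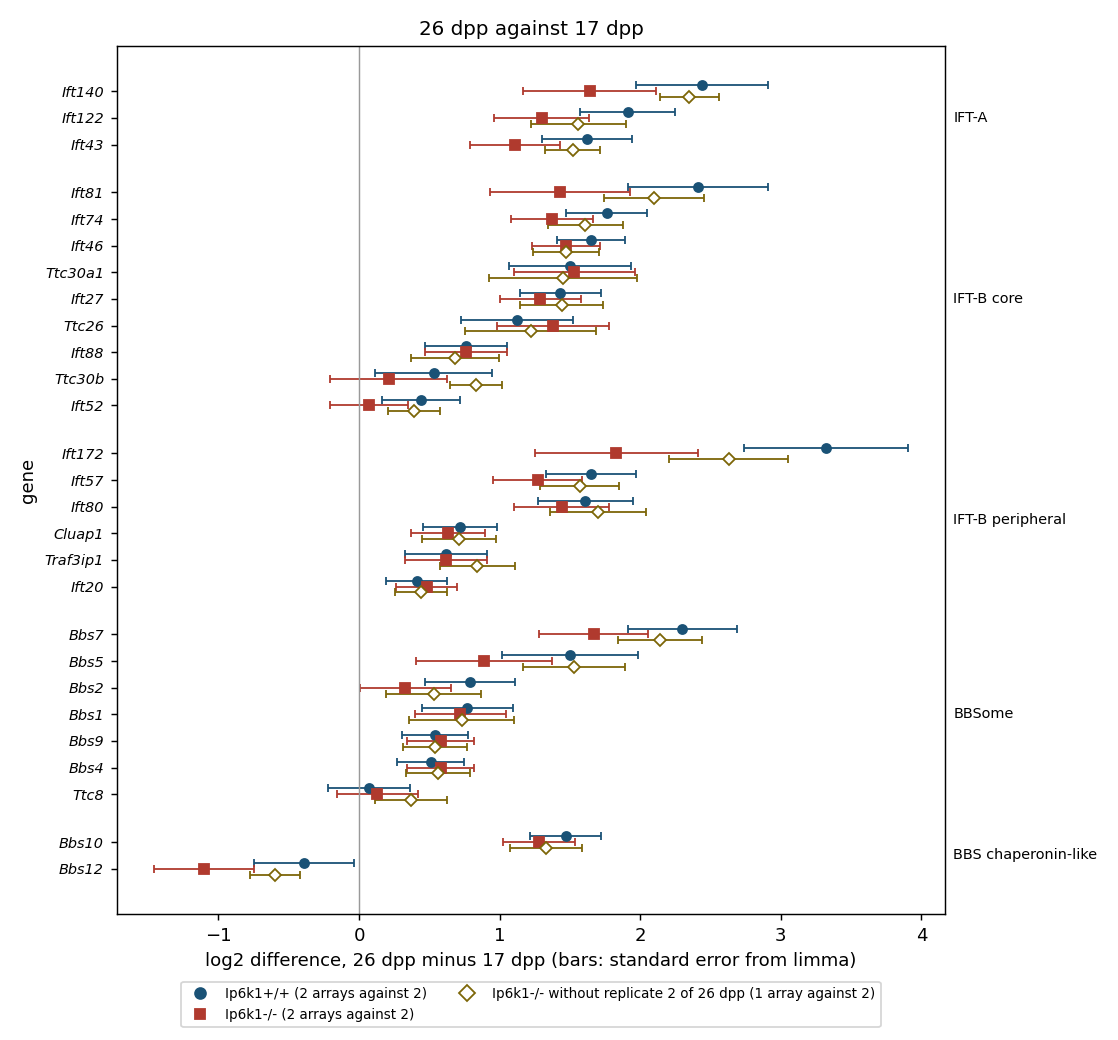
Log2 difference of 26 minus 17 dpp for each of the 27 genes (horizontal axis; bars are limma standard errors) in wild type, in knockout, and in knockout without replicate 2 of 26 dpp. Wild type differences run from −0.39 (Bbs12) to 3.32 (Ift172); the knockout values of Ift172, Ift140 and Ift81 lie lower with both arrays (1.83, 1.64 and 1.43) than without replicate 2 (2.63, 2.35 and 2.10).

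In knockout, 7 of the 27 genes were called higher at 26 than at 17 dpp and 0 lower, against 7.62% and 8.18% of all genes. They were Bbs7 (1.67, limma adjusted p 0.0402), Ift46 (1.47, 0.0226), Ift80 (1.44, 0.0416), Ift74 (1.37, 0.0331), Ift27 (1.29, 0.0371), Bbs10 (1.28, 0.029) and Ift57 (1.27, 0.0484), all of which were also called in wild type. The median knockout difference was 1.11, against −0.31 for all genes. The largest knockout difference, that of Ift172 (1.83, limma adjusted p 0.0825), was not called. Without replicate 2 of 26 dpp, which leaves 1 knockout array of that age assumed to vary like the other groups, 15 of the 27 genes were called higher and 1, Bbs12 (−0.60, limma adjusted p 0.0346), lower. In that fit 21.5% of all genes were called higher and 38.1% lower, and the median of the 27 genes was 1.33.

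The wild type calls rested on both arrays of each wild type group. They were lost when any 1 of these 4 arrays was left out, as were most calls over all genes. The median difference stayed between 1.23 and 1.52 across all single arrays left out. Leaving out either knockout array of 26 dpp added calls, both among the 27 genes and over all genes. In knockout the calls were lost without replicate 1 of 17 dpp or any 1 wild type array, again with most calls over all genes. The median knockout difference ran from 0.75 to 1.33 with 1 array left out. Such fits leave 1 array in a group, so their calls are not read as a result about these genes.

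The knockout was next compared with wild type at each age, which asks whether loss of Ip6k1 goes with altered levels of the transport genes. At 26 dpp 0 of the 27 genes was called by limma, 0 at an unadjusted p under 0.05, against 653 of all genes unadjusted and 0.00752% called. The adjusted p ran from 0.535 to 0.987, and standard errors from 0.216 to 0.581. The median difference was −0.17 (range −1.04 to 0.24), against 0.08 for all genes. The 5 genes with the largest differences were Ift172 (−1.04, SE 0.581), Ift140 (−0.87, SE 0.471), Bbs5 (−0.72), Ift81 (−0.68) and Ttc30b (−0.54). Ttc30b, the IFT70 copy, read −1.08 and −1 on the Ip6k1+/+ arrays of 17 dpp, −1.17 and −1.35 on the Ip6k1-/- arrays of that age, −0.51 and −0.52 on the older Ip6k1+/+ arrays, and −0.43 and −1.67 on the older Ip6k1-/- arrays. Its knockout replicates of 26 dpp lay on opposite sides of wild type. Both knockout arrays lay below both wild type arrays for 9 genes (Ift172, Ift140, Ift122, Ift43, Ift74, Ift46, Ift52, Cluap1 and Bbs10) and above for 1 (Ift88), against 17% and 15.3% of all genes. With standard errors of this size the test does not show that the levels were alike.

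The larger of these 26 dpp differences rested mostly on knockout replicate 2. It was below the other 3 arrays of 26 dpp in 19 of the 27 genes (37.6% of all genes) and above them in 4 (Ttc30a1, Ttc26, Ift88 and Ift20; 50.7% of all genes), yet above all 4 arrays of 17 dpp in 21 (33% of all genes). It lay lowest for all 3 IFT-A genes, 5 of 9 IFT-B core, 5 of 6 peripheral, 4 of 7 BBSome and both chaperonin-like genes. Relative to replicate 1 the gap was −1.59 for Ift172, −1.43 for Ift140, −1.35 for Ift81, −1.27 for Bbs5, −1.24 for Ttc30b and −1 for Bbs12, but 0.00 for Ift46, −0.10 for Bbs10 and 0.31 for Ttc26. Without it the median difference was 0.00 (range −0.24 to 0.31) and 0 genes were called, with Ift172 at −0.24, Ift140 at −0.15, Bbs5 at −0.08, Ift81 at −0.01 and Ttc30b at 0.09. With it as the only knockout array of 26 dpp, assumed to vary like the other groups although it stood apart, 8 genes had an adjusted p under 0.05 and were lower by limma (18.3% of all genes were): Ift172 (−1.84), Ift140 (−1.58), Ift81 (−1.36), Bbs5 (−1.35), Ttc30b (−1.16), Bbs12 (−0.97), Ift43 (−0.88) and Ift52 (−0.64). The round spermatid marker median, given above, was low on the same array, and its part in these values was not tested.

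**Figure D3:**
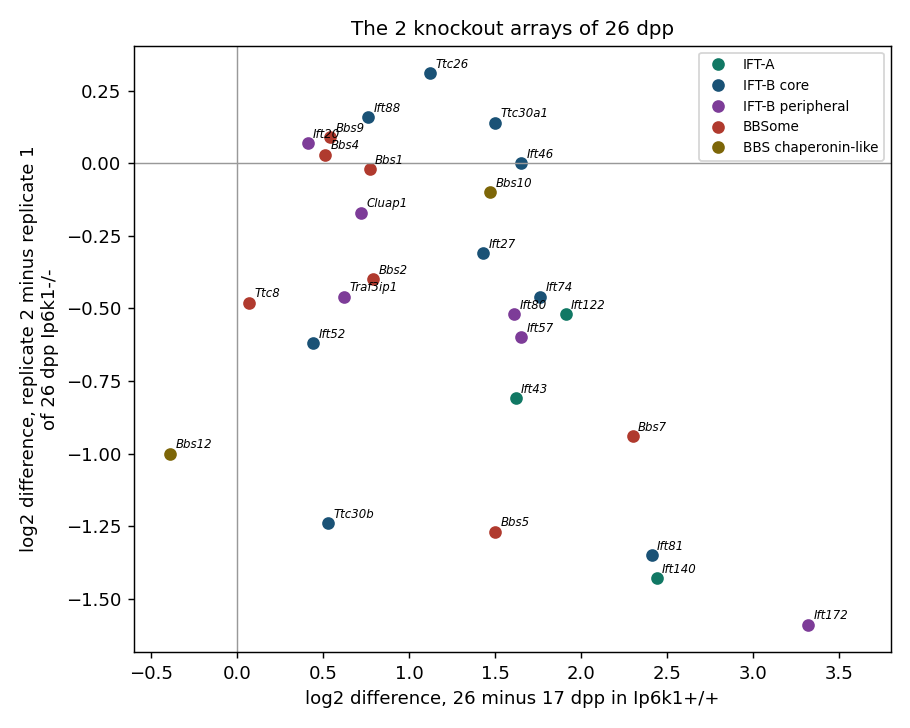
For each of the 27 genes, the log2 difference of knockout replicate 2 minus replicate 1 of 26 dpp (vertical axis) against the log2 difference of 26 minus 17 dpp in wild type (horizontal axis), coloured by complex. Ift172, Ift140 and Ift81 rose most in wild type and lie lowest (−1.59, −1.43 and −1.35), while Ift46 (0.00) and Bbs10 (−0.10) rose in wild type and lie near 0.

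Across the 27 genes, the gap between these replicates and the wild type rise correlated at Pearson r −0.459 (Spearman rho −0.393), and over all 26584 genes at −0.819. For the 17 dpp knockout replicates, the gap of replicate 2 minus replicate 1 correlated with the wild type rise at Pearson r 0.444 (Spearman rho 0.462). Over all genes that Pearson r was 0.321. These are descriptions across genes, which are not independent and were read on the same arrays.

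**Figure D4:**
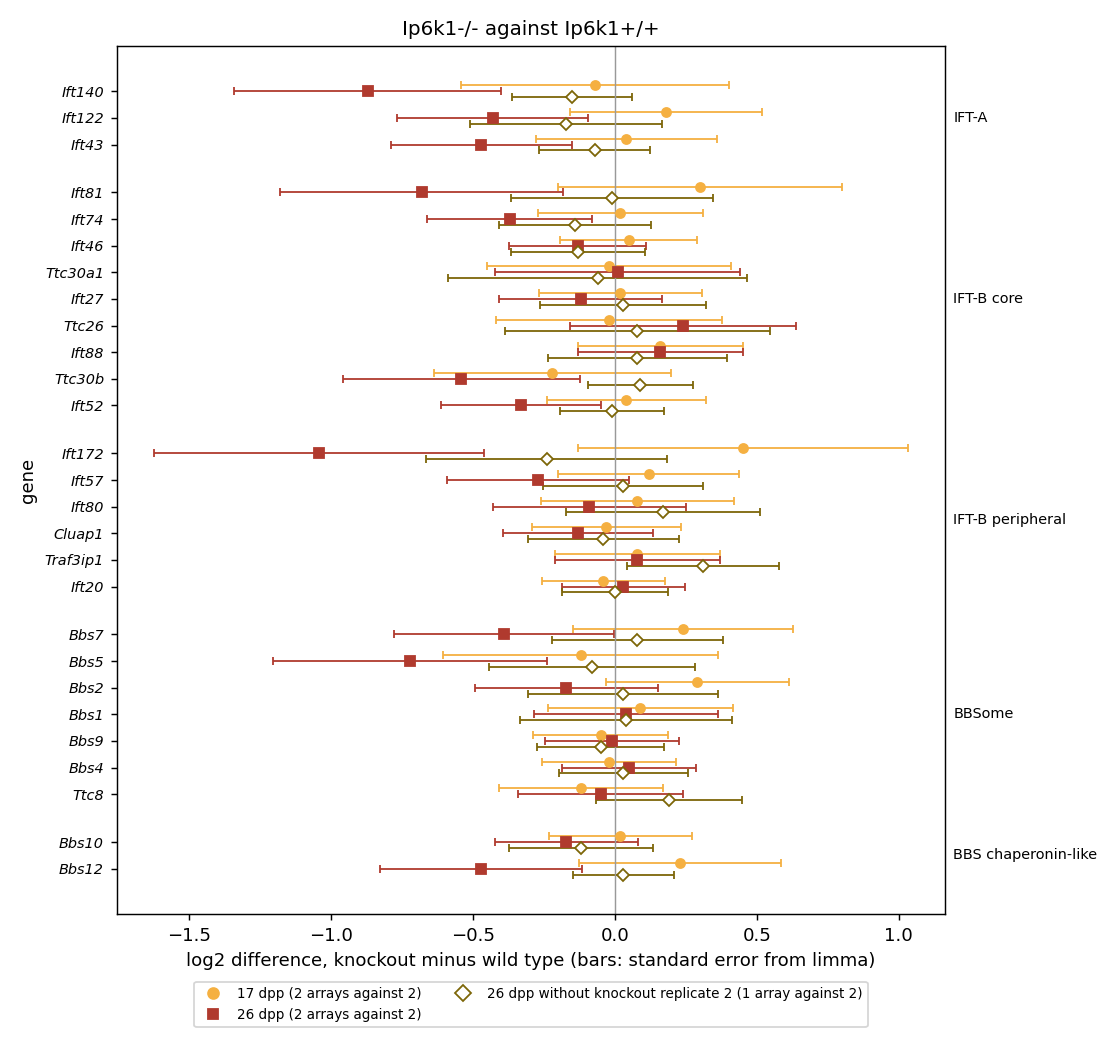
Log2 difference of knockout minus wild type for the 27 genes at 17 dpp, at 26 dpp, and at 26 dpp without knockout replicate 2 (horizontal axis; bars are limma standard errors). At 26 dpp the values reach −1.04 (Ift172) with both knockout arrays and stay between −0.24 and 0.31 without replicate 2.

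At 17 dpp 0 of the 27 genes was called by limma, 0 at an unadjusted p under 0.05 (383 of all genes were), and every adjusted p was 1. Of all genes 0.0903% were called. The median difference was 0.04 (range −0.22 to 0.45), and the 5 largest were Ift172 (0.45), Ift81 (0.30), Bbs2 (0.29), Bbs7 (0.24) and Bbs12 (0.23). The knockout arrays were both higher only for Bbs12 (16% of all genes) and both lower only for Ttc30b (12.8%). Knockout replicate 2 was above the other 3 arrays of 17 dpp in 21 of 27 genes (29.6% of all genes) and above knockout replicate 1 in 24 (47.9%); without it Ift172 read −0.02, Ift81 −0.08 and Bbs7 −0.06. Its pachytene marker median was 1.35, against 0.92 to 1.06 on the other 17 dpp arrays, and their part was not tested. The epididymis markers, higher on the wild type arrays of 17 dpp as given above, include 9 of 11 that were well above background on those 2 arrays alone. Ducts leading to the epididymis hold multiciliated cells, which carry much IFT protein. The median of 7 markers of such cells was −0.07 and −0.15 on the wild type arrays of 17 dpp and −0.60 and 0.22 on the knockout arrays, so the groups overlapped. At 26 dpp it was 4.28 to 4.46 except on knockout replicate 2 (−0.02). These 7 markers did not move as one: in wild type 4 rose and 2 fell between the ages (18.9% and 26.1% of all genes). Some of them also stand in the lists of regulators and motors given below, so their median is no measure of duct cells alone. The part of these cells was not tested.

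The difference between the knockout effects at the 2 ages was tested as an interaction. By limma 0 of the 27 genes was called, 0 at an unadjusted p under 0.05 (504 of all genes were), and 0% of all genes were called. The largest was that of Ift172, −1.49 (SE 0.822), and adjusted p ran from 0.781 to 0.999.

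For 8 of the genes a second probe was held, and for 3 of them the probes disagreed. In a limma fit on the within-array difference between the probes, chosen after the data were seen, 7.85% of 7487 genes with several probes changed unequally between the ages in wild type. The probes are 60 bases long, and the first 30 bases of each are shown because the wild type rise of a gene depended on which probe was read; coordinates are those of the whole probe, on mm9, as the files give them.

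Bbs1 brighter, chr19:4887034-4887093, minus strand: ctactgagaggactgcattgatcctaattt
Bbs1 dimmer, chr19:4889160-4889219, minus strand: ggaatgttgctgtgagtcacaaaccccagc
Ift74 brighter, chr4:94359701-94359760, plus strand: cagattgcagagtataataaaaccatcatg
Ift74 dimmer, chr4:94330960-94331019, plus strand: gaagacagaagcaggagtgtaccggtgaat
Ift46 brighter, chr9:44598913-44598972, plus strand: agcttccagagacacacagactgctctgtc
Ift46 dimmer, chr9:44600737-44600796, plus strand: ggacctcattgcacaggcttgattgactcc

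The dimmer Bbs1 probe gave −2.46 and −2.38 on the younger wild type arrays, then 0.19 and 0.32 on the older, a difference of 2.67 against 0.77 for the brighter probe (gap 1.90, SE 0.191, limma adjusted p 0.0126). The gap was 1.28 in knockout (limma adjusted p 0.041), where that of Ift74 was −1.67 and did not pass (0.0612). Both Bbs1 probes are listed under the same accession. The dimmer Ift74 probe, listed under another accession than the brighter one, gave −2.50 and −2.67 on the younger wild type arrays, then −2.74 and −2.81 on the older. It thus differed by −0.20 where the brighter probe rose by 1.76 (gap −1.96, SE 0.302, limma adjusted p 0.0281). The dimmer Ift46 probe gave −3.70 and −3.66 on the younger wild type arrays, then −6.29 and −4.32 on the older. Of the older arrays only wild type replicate 2 was well above background on this probe, so the fitted wild type gap of −3.27 (SE 0.656, limma adjusted p 0.0452) rests in part on a signal that was not measured above background. In knockout, where it was not well above background on either older array, it was at least 2.42-fold lower at 26 than at 17 dpp (measured means −6.18 and −4.21), with the lowest signal well above background on each older array taken as the limit. For Bbs5, Bbs7, Bbs10, Ift122 and Ttc26 the gap between the probes did not pass the test, and both probes differed upward in wild type; the dimmer Ttc26 probe was not well above background on either younger wild type array.

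**Figure D5:**
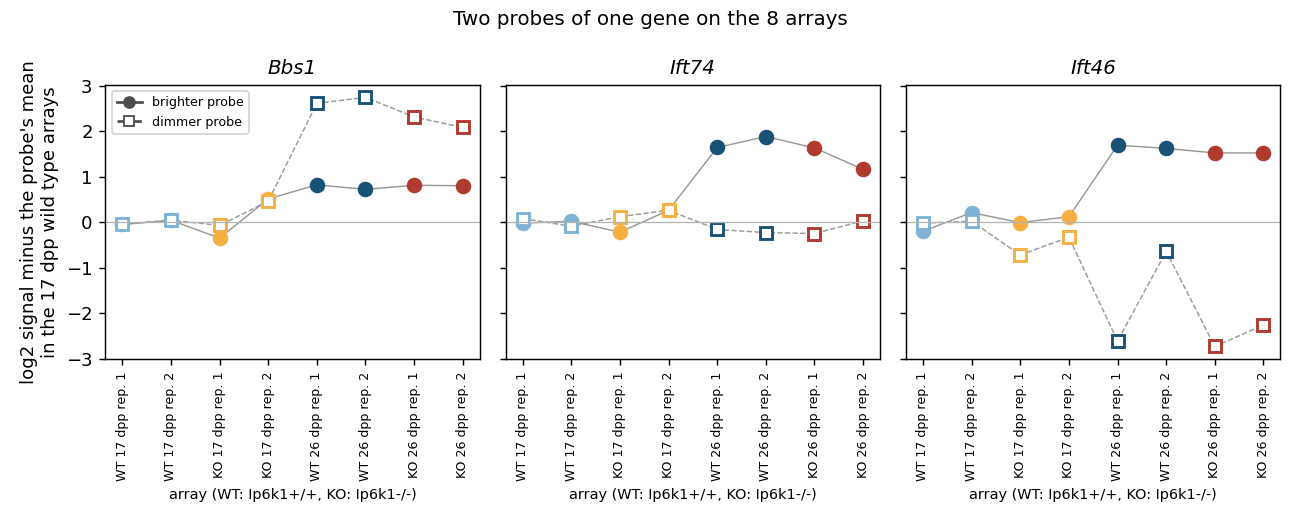
Log2 signal of the brighter probe (filled circles) and the dimmer probe (open squares) of Bbs1, Ift74 and Ift46 on the 8 arrays, each after subtracting that probe's mean in the 17 dpp wild type arrays. At 26 dpp the dimmer Bbs1 probe lies above the brighter one, the dimmer Ift74 probe stays near its 17 dpp level, and the dimmer Ift46 probe lies below 0, where 3 of its 4 values were not well above background.

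Other genes of the pathway were taken from lists of known components, and their wild type change between the ages is given beside the same background of 18.9% higher and 26.1% lower. Of 15 further IFT and BBS proteins under other names, 9 rose and 3 fell (median 1.04). Ttc30a2, a close copy of Ttc30a1, rose by 5.30 (limma adjusted p 0.00835), the BBS gene Wdpcp by 2.93 (0.00813), and Ccdc28b, a modifier of the syndrome, fell by 1.6 (0.00892). Of 13 motor genes 7 rose and 1 fell (median 0.90), among them the dynein 2 heavy chain gene Dync2h1, which rose by 1.53 (0.0121), and the dynein 2 chain genes Tctex1d2 and Wdr60, by 3.18 and 1.52. Of 25 genes of the transition zone and its appendages, the gate at the cilium base, 12 rose and 2 fell (median 0.78), with Cc2d2a falling by 2.07 and Ahi1 rising by 3.65. Of 17 genes known to work with IFT in sperm tail assembly 16 rose and 0 fell (median 5.20), for example Odf2, of the outer dense fibres, by 4.13 and Cfap43 by 5.30. Of 10 regulators of cilium genes tested 3 rose and 2 fell (median −0.08), and Rfx2, known to be needed for spermatid development, rose by 3.91 in wild type (limma adjusted p 0.0122) and by 2.91 in knockout (0.0414). Of 10 hedgehog pathway genes, whose signal passes through primary cilia, 2 rose and 7 fell (median −2.22). Gpr161, a receptor that holds the pathway back, rose by 4.17 and had the smallest adjusted p of them (limma, 0.00889), whereas Ptch1 fell by 2.75 and Gli2 by 2.29. In none of these 6 lists was a gene called between knockout and wild type at either age. In knockout, 4 of the 15 further IFT and BBS genes, 3 of the motors, 3 of the transition zone genes and 11 of the sperm tail genes rose between the ages, and 3, 0, 1 and 0 fell. Of the regulators 2 rose and 1 fell there, and of the hedgehog genes 1 rose and 0 fell. Over all genes in knockout, 7.62% were called higher and 8.18% lower.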

How the data were processed

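Per the labels' protocols, TRIZOL-extracted testis RNA was copied from an oligo-dT primer, labelled with Cy3 and hybridised as 1 sample per array. Spots were read with Agilent Feature Extraction 11.5.1.1, per the file headers, and the deposited intensity values are unscaled between arrays; of these the processed signal had background and a spatial trend removed, per the file headers. The authors' deposited value table holds log2 values of unstated making; its columns (medians −3.84 to −3.59) followed log2 of the processed signal minus the array's 75th percentile at r of 0.999906 to 0.999946, with no centring per probe. It served as an alternative.

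Processed signals were divided by each array's 75th percentile over all non-control spots (470 to 692). Outlier spots (103 to 200 an array) were then dropped and spots of a probe averaged. Of the spots 0 were saturated. Probes well above background on both arrays of a group were kept (37807), and each gene was represented by its brightest kept probe. Group means were fitted with limma 3.58.1 in R 4.3.3 (residual df 4, tested on simulated data). Between 58.8% and 64.6% of probes were well above background; 2 arrays a group limit the precision. The members, gene lists and tests were chosen with earlier results of these data known. Array values are printed for called genes (at most the 10 with the largest difference per comparison) and for the 5 largest genotype differences at each age; from each list at most the 3 genes with the smallest adjusted p are named. Exon and UTR positions of probes were not analysed here.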

Additional observations from a re-analysis of the deposited data

How the results depend on the processing

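Under 21 alternatives the count of called genes and the median kept within the limits set for them in 180 of 203 cases; the exceptions follow, with causes not tested. For 26 minus 17 dpp in wild type the count of 14 (11978 over all genes) became 26 with array weights (19798) and 22 with the compared groups alone (18652). A fit with the replicate number as a block gave 13 (4136 higher and 4659 lower over all genes). Counts also moved, over all genes as well, with 1 array left out or with both knockout replicates 2 left out. The latter alternative was chosen after the data were seen. These fits leave 1 array in a group, so their counts are not given here. With 1 array left out the wild type median ran from 1.23 to 1.52. In knockout the count of 7 became 4 with no filter on dim probes, 12 when a probe had to pass on every array, 0 with array weights, 0 with the compared groups alone, 0 with the replicate block, 19 with both knockout replicates 2 left out (median then 1.54), and 0 to 16 with 1 array left out. The replicate block changed no other count; correlations of same-numbered deviations ran from −0.401 to 0.11, so the numbers were not taken as pairs. For knockout minus wild type the count ran from 0 to 8 at 26 dpp, 0 to 0 at 17 dpp and 0 to 6 for the interaction with 1 array left out; the 8 and the 6 came without replicate 1 of 26 dpp knockout.

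Reversed values for 26 minus 17 dpp came with the dimmest probe for Ift46 (−1.62 in wild type, −1.97 in knockout) and Ift74 (−0.20 and −0.30). Ift46 in knockout was −0.25 with probes averaged, and Ttc8 in wild type ran from −0.08 to 0.21 with 1 array left out. The dimmest Ift46 probe was well above background on 1 of 4 arrays of 26 dpp. The sizes of these Ift46 values, and the sign of the averaged one, were therefore not measured. In knockout the dimmest Ift46 probe was at least 2.42-fold lower at 26 than at 17 dpp, as given above. At 17 dpp the knockout differences of Ift172, Ift81 and Bbs7 were −0.02, −0.08 and −0.06 without replicate 2 of knockout, or of both ages, and ran from −0.02 to 0.92, −0.08 to 0.68 and −0.06 to 0.53 with 1 array left out, Bbs2 from −0.02 to 0.61; at 26 dpp Ttc30b was 0.09 without replicate 2 (−1.16 to 0.09). Other scalings moved the all-gene median of 26 minus 17 dpp in wild type from −0.46 to between −0.53 and −0.28; the 27 genes stayed 1.51 to 1.88 above it, with 14 to 18 called higher and 0 lower. For single genes, 710 values kept direction and side of the threshold, 61 came past it, 138 no longer passed it and 15 reversed. Over all genes, with every array kept in, calls ran from 0 to 39 at 17 dpp (24 as reported), 0 to 10 at 26 dpp (2), 8795 to 19798 for the ages in wild type (11978) and 0 to 4472 in knockout (4200).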
